A study of Homo sapiens with 10 samples.

Results

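Kinesins are motor proteins that use ATP to move along microtubules or to shorten their ends. Mitotic kinesins push spindle poles apart, move chromosomes and build the midzone that divides the cell, and their genes are switched on in G2 and M phase and kept low in resting cells. Transport kinesins carry vesicles, mitochondria and cilium components through cells that may or may not divide, and their genes are not known for such a cell cycle rhythm. The kinesin genes were taken by name, as every gene whose symbol is KIF with a number and an optional letter, or KIFC1, KIFC2 or KIFC3. This gave 42 genes of the 60574 in the table, which were sorted by textbook role into 14 mitotic, 15 transport and 13 other kinesins. The roles were assigned with earlier results of these data known. CENPE, a mitotic kinesin whose symbol does not start with KIF, is not among them and is given with the mitotic partners.

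The cells were U266, an established plasma cell line from human multiple myeloma, and the poly(A) RNA of 10 libraries was sequenced. In 5 libraries, A to E, the cells carried a guide RNA aimed at the EFNB2 start site (called gRNA2 in the labels), and in 5 further libraries, A to E, a non-targeting scrambled guide (cgRNA). All cells of both groups carried dCas9-VPR, a Cas9 without cutting activity joined to transcriptional activators, delivered by lentivirus, and all were selected and kept in puromycin and blasticidin. The labels say neither whether a population is a clone nor whether each library had a culture of its own, so p-values measure the spread between these libraries only. EFNB2, which encodes the membrane ligand ephrin-B2, stood at 0.955, 1.12, 1.254, 1.496 and 1.21 CPM (read counts scaled to a fixed library size) in EFNB2-guide libraries A to E, against 0.170, 0.136, 0.143, 0.110 and 0.0365 CPM in control-guide libraries A to E. The groups did not overlap (log2 fold change 3.32, SE 0.25, adjusted p = 4.68e-08). The control values rest on few reads, 3 counts being 0.0547 CPM in control-guide library E, so the size of the fold is uncertain. Over 20 alternative settings the log2 fold change of EFNB2 ran from 0.97 to 3.55.

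Total counts lay between 47268072 and 56513548 per library and were on average lower with the EFNB2 guide (exact permutation test, two-sided, p = 0.0397). The 10 plasma cell markers together reached 5803 to 6055 CPM with the EFNB2 guide and 6136 to 6932 CPM with the control guide, while the 5 B cell markers together stayed at 0.328 to 0.534 CPM with the EFNB2 guide and 0.220 to 0.605 CPM with the control guide. Of the plasma cell markers, 4 were higher and 4 lower with the EFNB2 guide, beside 22.8% higher and 22.6% lower over all tested genes. SDC1 (mean 2121 CPM against 3015 CPM with the control guide) was among the falls and CD38 (log2 fold change 2.17) among the rises. The summed markers of T cells were 11.7 to 13.1 CPM against 9.60 to 10.9 CPM, of myeloid cells 2.48 to 3.40 CPM against 2.08 to 2.63 CPM, and of fibroblasts and epithelium 27.9 to 31.9 CPM against 21.9 to 29.3 CPM, the EFNB2 guide given before the control guide. Most of the first and last sums came from 1 gene each, TRAC (mean 8.95 CPM against 5.90 CPM) and COL1A1 (24.6 CPM against 17.4 CPM). CD8A and COL3A1 were lower with the EFNB2 guide. CD3D, CD3G, CD4, COL1A2, EPCAM and KRT19 stayed at or below 0.0966 CPM in every library. Not all of their kind were that low. CD3E averaged 2.85 CPM with the EFNB2 guide against 3.21 CPM with the control guide. In the same order KRT18 averaged 1.58 CPM against 1.51 CPM and KRT8 0.534 CPM against 0.492 CPM. CD3E, KRT18 and KRT8 did not pass the threshold. The part of these markers in the kinesin results was not tested. The A library of each guide stood apart from its group on the second principal component, which held 8.33% of the variance, and results that rest on it are given below with and without it.

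All mitotic kinesins with enough reads for a test rose in cells with the EFNB2 guide, most of them between 1.27-fold and 1.51-fold and KIF23 1.68-fold, while the transport kinesins moved in both directions, KIFC3 apart by smaller amounts. Of the 32 kinesins tested, 17 were higher and 10 lower with the EFNB2 guide at an adjusted p under 0.05 (edgeR's quasi-likelihood test, Benjamini-Hochberg adjusted over 17834 genes), and 5 did not pass. The same threshold called 45.4% of all tested genes, 22.8% as higher and 22.6% as lower, so calls were common among all genes. Among mitotic kinesins 12 of 12 were higher and 0 lower, with a median log2 fold change of 0.43 and a range of 0.35 to 0.75. With KIF2A and KIF24 also counted as mitotic, 13 of 14 were higher and 1, KIF2A, was lower. Among transport kinesins 3 of 13 were higher and 6 lower, with a median of -0.11 and a range of -0.81 to 0.34. That median was -0.0399 with no filter on low counts (15 genes) and -0.0681 when genes needed 1 CPM or more in 5 libraries (4 of 12 higher and 5 lower). The 7 other kinesins gave 2 higher and 4 lower with a median of -0.09. The median over all tested genes was 0.01.

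The groups separated without overlap, every EFNB2-guide library above every control-guide library, in 11 of the 12 tested mitotic kinesins, in 3 transport kinesins and in 1 other kinesin. The opposite order held in 0 mitotic, 4 transport and 3 other kinesins. Over all tested genes 30.3% showed no overlap, 15% with the EFNB2 guide above and 15.2% with it below. Changes of at least 1.5-fold past the threshold were found for 3 kinesins as rises, KIF23, KIF18B and KIF7, and for KIFC3 as a fall, beside 9.37% of all tested genes (6.15% as rises and 3.22% as falls).

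**Figure D1:**
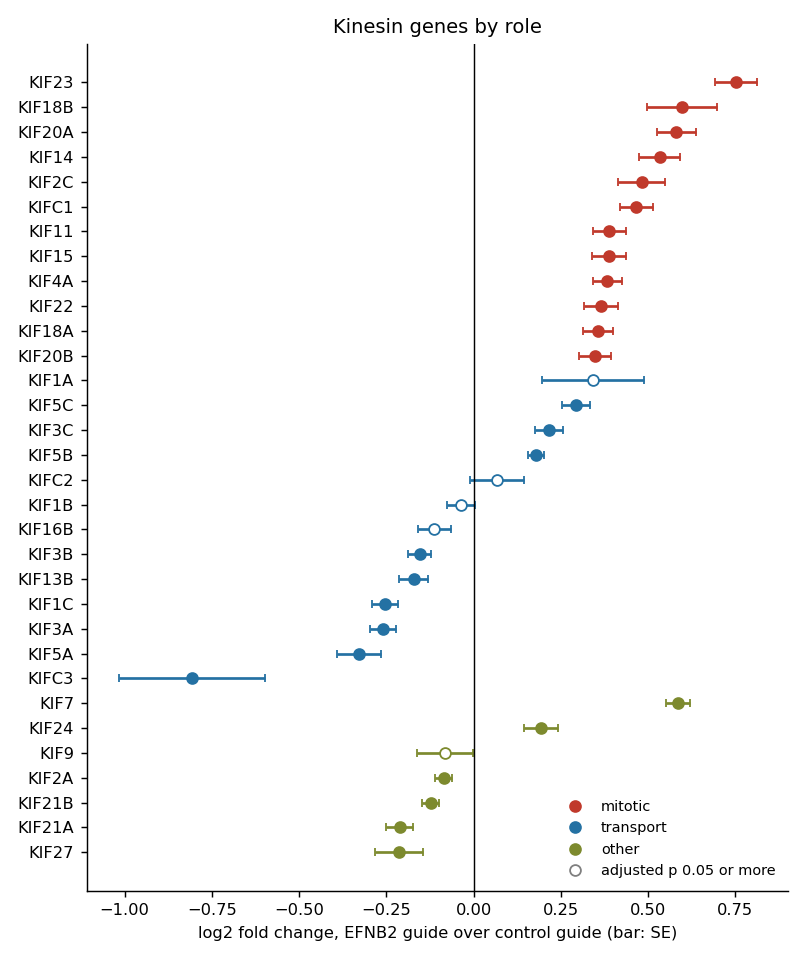
Log2 fold change (EFNB2 guide over control guide) of the 32 tested kinesins by role, with bars of 1 SE and open points for an adjusted p of 0.05 or more. The 12 mitotic kinesins all lie right of 0, between 0.35 and 0.75, and the transport and other kinesins lie on both sides.

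The sum over mitotic kinesins shows the shift as a single quantity per library. It was 1088, 1252, 1257, 1251 and 1263 CPM in EFNB2-guide libraries A to E, against 1007, 866, 828, 847 and 867 CPM in control-guide libraries A to E, a ratio of means of 1.38. The lowest sum with the EFNB2 guide and the highest with the control guide both belonged to the A libraries, and the groups did not overlap. The transport kinesins summed to 517, 512, 508, 507 and 507 CPM in EFNB2-guide libraries A to E, against 505, 534, 524, 526 and 528 CPM in control-guide libraries A to E, a ratio of 0.974. The 7 other kinesins summed to 382, 387, 389, 373 and 383 CPM with the EFNB2 guide, against 401, 391.6, 390.3, 399.7 and 392.1 CPM with the control guide, a ratio of 0.969. In RNA of whole cell populations, more cells in mitosis and more of these transcripts per cell cannot be told apart.

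**Figure D2:**
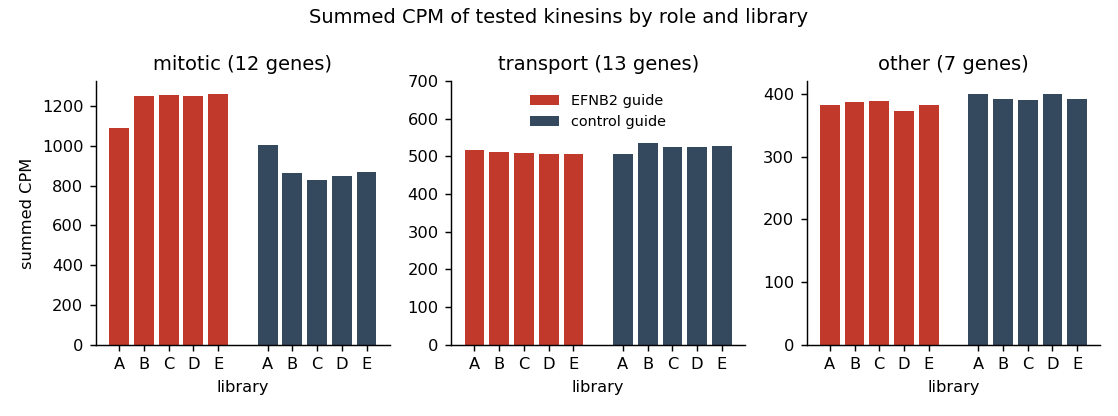
Summed CPM of the tested kinesins of each role in each library, EFNB2 guide left of control guide. The mitotic sums of the EFNB2 guide (1088 to 1263 CPM) lie above those of the control guide (828 to 1007 CPM), and the transport sums differ by a few percent.

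The DNA before the start sites of the mitotic kinesins is shown here because genes of this kind are known to share a cell cycle homology region (CHR), an element with the core TTTGAA that LIN54 of the DREAM and MuvB complexes binds, with CCAAT boxes bound by NF-Y just upstream. Each line gives the 100 bases before the annotated start and the first 10 bases after it, in the direction of transcription, from RefSeq (GRCh38.p14), with matches on either strand in capitals. A CHR-type match here is TTTGAA on either strand, or the variant form, spelled TTCGAA, which is its own complement. The box is CCAAT, which reads ATTGG where it lies on the other strand. The coordinates are chr15:69414249-69414358 (plus strand) for KIF23, chr10:92593030-92593139 (plus) for KIF11, chrX:70290004-70290113 (plus) for KIF4A, chr11:28108147-28108256 (minus) for KIF18A, chr17:44947764-44947873 (minus) for KIF18B, chr16:29790651-29790760 (plus) for KIF22 and chr5:138179012-138179121 (plus) for KIF20A. For the transport kinesins they are chr10:32056416-32056525 (minus) for KIF5B and chr5:132737537-132737646 (minus) for KIF3A.
KIF23: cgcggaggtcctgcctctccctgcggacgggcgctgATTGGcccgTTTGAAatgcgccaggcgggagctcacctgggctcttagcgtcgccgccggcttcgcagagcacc
KIF11: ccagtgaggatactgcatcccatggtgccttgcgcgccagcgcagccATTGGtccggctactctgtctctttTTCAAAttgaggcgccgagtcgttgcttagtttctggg
KIF4A: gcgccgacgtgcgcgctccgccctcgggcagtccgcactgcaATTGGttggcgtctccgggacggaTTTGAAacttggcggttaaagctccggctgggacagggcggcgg
KIF18A: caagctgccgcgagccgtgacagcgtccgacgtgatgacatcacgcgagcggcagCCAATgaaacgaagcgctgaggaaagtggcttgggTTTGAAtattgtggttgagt
KIF18B: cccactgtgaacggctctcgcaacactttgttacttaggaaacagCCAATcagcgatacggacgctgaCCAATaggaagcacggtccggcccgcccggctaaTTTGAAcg
KIF22: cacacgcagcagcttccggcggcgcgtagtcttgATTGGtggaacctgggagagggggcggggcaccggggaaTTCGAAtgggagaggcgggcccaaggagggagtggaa
KIF20A: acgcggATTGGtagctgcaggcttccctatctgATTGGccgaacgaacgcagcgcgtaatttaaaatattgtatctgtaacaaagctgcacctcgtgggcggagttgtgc
KIF5B: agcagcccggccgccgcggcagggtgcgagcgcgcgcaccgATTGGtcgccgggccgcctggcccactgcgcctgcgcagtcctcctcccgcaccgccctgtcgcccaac
KIF3A: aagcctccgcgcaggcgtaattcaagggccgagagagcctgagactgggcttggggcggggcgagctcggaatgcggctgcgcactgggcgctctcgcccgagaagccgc
In KIF23 the CHR-type match begins at position -55 and the CCAAT match at -64, counted with -1 as the last base before the start. KIF11 has them at -28 and -53, and KIF4A at -34 and -58. KIF18A has them at -10 and -45, and KIF22, with the TTCGAA form, at -27 and -66. In KIF18B the CHR-type match begins after the start, at position 3, and so it does in KIF14 (2), KIFC1 (5) and KIF20B (25 and 31). KIF15 has it at -35. KIF20A holds a pair of CCAAT boxes and no CHR-type match, and KIF3A holds neither. KIF5B has a CCAAT match at -59 and a CHR-type match farther up, at -140, outside the printed stretch.

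Windows of 300 bases, 250 before the start and 50 after it, were found for 34 of the 42 kinesins. A CHR-type match stood in the window of 10 of 12 tested mitotic kinesins (83.3%), KIF20A and KIF2C having none, in 1 of 9 tested transport kinesins with a window and in 1 of 5 other ones, KIF24. The share was 15.6% of the 10989 tested genes with a window and 19.5% of all 27305 genes with one. A CCAAT match was present in 10 of 12 mitotic, 4 of 9 transport and 1 of 5 other kinesins, against 43.5% of tested genes. Both together occurred in 9 of 12 mitotic kinesins (75.0%), 1 of 9 transport and 1 of 5 other ones, against 6.62% of tested genes. These motifs were picked with the direction of the mitotic kinesins known, and a match is a run of letters, not a measured binding site.

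**Figure D3:**
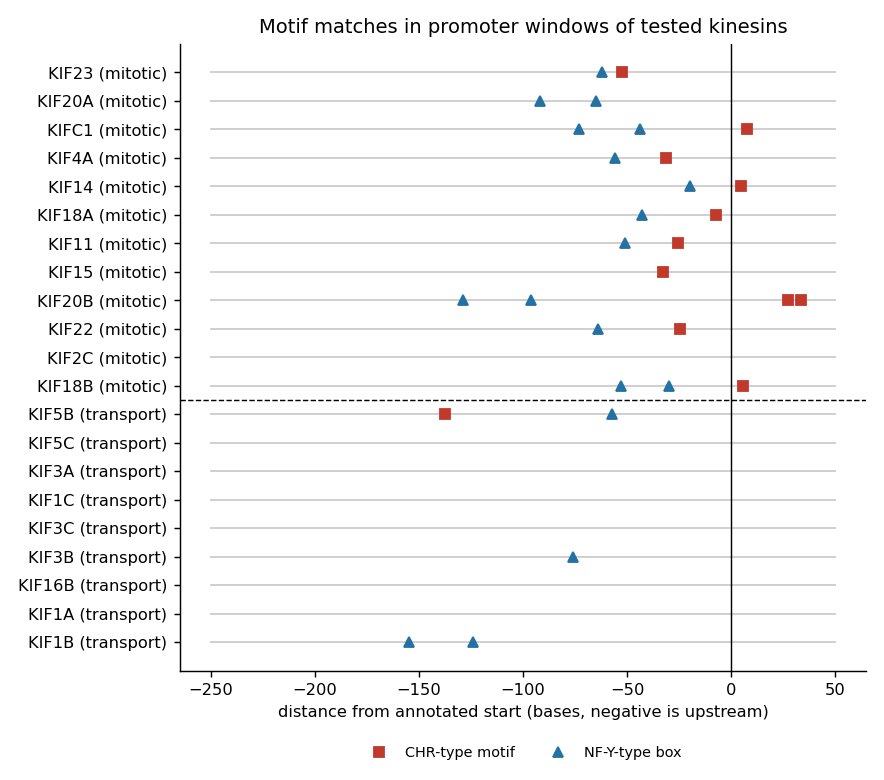
Positions of motif matches in the promoter windows of the tested mitotic and transport kinesins, in bases from the annotated start (first window of each gene). Squares mark CHR-type matches and triangles CCAAT boxes, on either strand; among mitotic kinesins 10 of 12 have a square, and among the 9 transport kinesins only KIF5B has one.

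Among the motors that separate and organise the spindle poles, KIF11, KIF15 and KIFC1 rose. KIF11 (Eg5) slides antiparallel microtubules apart to separate the poles, and it took the most reads of any mitotic kinesin. KIF11 reached 161, 183, 182, 182 and 186 CPM in EFNB2-guide libraries A to E, and 153, 137, 126, 133 and 134 CPM in control-guide libraries A to E. Every library with the EFNB2 guide lay above every control (log2 fold change 0.39, SE 0.05, adjusted p = 9.1e-06). KIF15 can take over part of the work of KIF11 in holding the spindle bipolar. The level of KIF15 was 52.8, 58.8, 58.2, 57.4 and 57.0 CPM in libraries A to E of the EFNB2 guide, against 49.5, 42.6, 40.4, 41.3 and 43.1 CPM in those of the control guide. The groups did not overlap (log2 fold change 0.39, SE 0.05, adjusted p = 9.98e-06). KIFC1 (HSET) walks toward microtubule minus ends and gathers poles, including those of extra centrosomes. KIFC1 was at 139, 152, 157, 157 and 156 CPM in EFNB2-guide libraries A to E, against 125, 106, 108, 104 and 107 CPM in control-guide libraries A to E. Again the groups did not overlap, with the A library of the EFNB2 guide lowest and that of the control guide highest (log2 fold change 0.47, SE 0.05, adjusted p = 1.27e-06).

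The chromokinesins KIF4A and KIF22 sit on chromosome arms, where KIF22 helps push chromosomes toward the spindle equator and KIF4A helps to condense them and later acts at the midzone. KIF4A reached 113, 124, 122, 123 and 126 CPM in EFNB2-guide libraries A to E, and 103, 89.5, 87.2, 92.6 and 93.4 CPM in control-guide libraries A to E. The groups did not overlap (log2 fold change 0.38, SE 0.04, adjusted p = 2.11e-06). KIF4A has a near-identical intronless copy, KIF4B, which held 29 counts summed over the EFNB2-guide libraries and 18 over the controls, so the split of reads between the copies is uncertain. KIF22 averaged 155 ± 8.00 CPM under the EFNB2 guide, against 120.1 ± 9.81 CPM in control-guide libraries (SD, n = 5 each) and rose by a log2 fold change of 0.37.

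Of the motors that act on microtubule ends, KIF18A limits the length of kinetochore microtubules and KIF18B that of astral ones, and KIF2C (MCAK) takes tubulin off the ends to free wrongly attached chromosomes. The level of KIF18A was 29.3, 31.4, 28.7, 31.1 and 31.2 CPM in libraries A to E of the EFNB2 guide, against 25.3, 23.1, 22.0, 23.5 and 24.6 CPM in those of the control guide. The groups did not overlap (log2 fold change 0.36, SE 0.04, adjusted p = 5.85e-06). KIF18B was at 65.5, 88.9, 90.3, 87.6 and 88.9 CPM in EFNB2-guide libraries A to E, against 71.5, 55.0, 48.9, 49.7 and 53.3 CPM in control-guide libraries A to E. KIF18B was the tested mitotic kinesin whose groups overlapped, because the EFNB2-guide A library lay below the control-guide A library (log2 fold change 0.60, SE 0.10, adjusted p = 0.000162). Without both A libraries KIF18B had a log2 fold change of 0.78 (SE 0.03). KIF2C averaged 98.9 ± 6.71 CPM under the EFNB2 guide, against 70.8 ± 8.65 CPM in control-guide libraries (SD, 5 libraries a guide), a log2 fold change of 0.48, and its lowest EFNB2-guide library (87.4 CPM) lay just above its highest control (86.0 CPM).

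The motors of the central spindle and of cell division gave the largest rise among the kinesins tested. KIF23 (MKLP1; chromosome 15, 69414246 to 69448427, plus strand, GRCh38) is the motor subunit of centralspindlin, which bundles midzone microtubules and recruits the division machinery. KIF23 reached 131, 161, 158, 157 and 159 CPM in EFNB2-guide libraries A to E, and 104, 91.4, 86.3, 85.4 and 87.9 CPM in control-guide libraries A to E. The lowest EFNB2-guide library, A, still exceeded the highest control, also A, and the fold was 1.68 (log2 fold change 0.75, SE 0.06, adjusted p = 7.53e-08). KIF20A (MKLP2; chromosome 5, 138178719 to 138187715, plus strand) brings the chromosomal passenger complex to the midzone. The level of KIF20A was 54.0, 65.3, 64.1, 67.3 and 65.6 CPM in libraries A to E of the EFNB2 guide, against 47.0, 40.7, 39.7, 42.4 and 41.4 CPM in those of the control guide. The groups did not overlap (log2 fold change 0.58, SE 0.06, adjusted p = 7.25e-07). KIF20A shares 268 bases with BRD8 and 68 bases with CDC23 on the other strand, so if strand was not used in counting a small part of its reads cannot be assigned. KIF14 works with citron kinase in the final steps of division. KIF14 was at 39.7, 48.5, 49.2, 47.4 and 46.7 CPM in EFNB2-guide libraries A to E, against 36.1, 32.3, 31.1, 29.8 and 30.6 CPM in control-guide libraries A to E. The groups did not overlap (log2 fold change 0.53, SE 0.06, adjusted p = 3.07e-06). KIF20B, another midzone motor, averaged 81.9 ± 4.70 CPM under the EFNB2 guide, against 64.4 ± 3.92 CPM in control-guide libraries (SD, 5 libraries a guide), a log2 fold change of 0.35, the smallest among the mitotic kinesins tested.

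**Figure D4:**
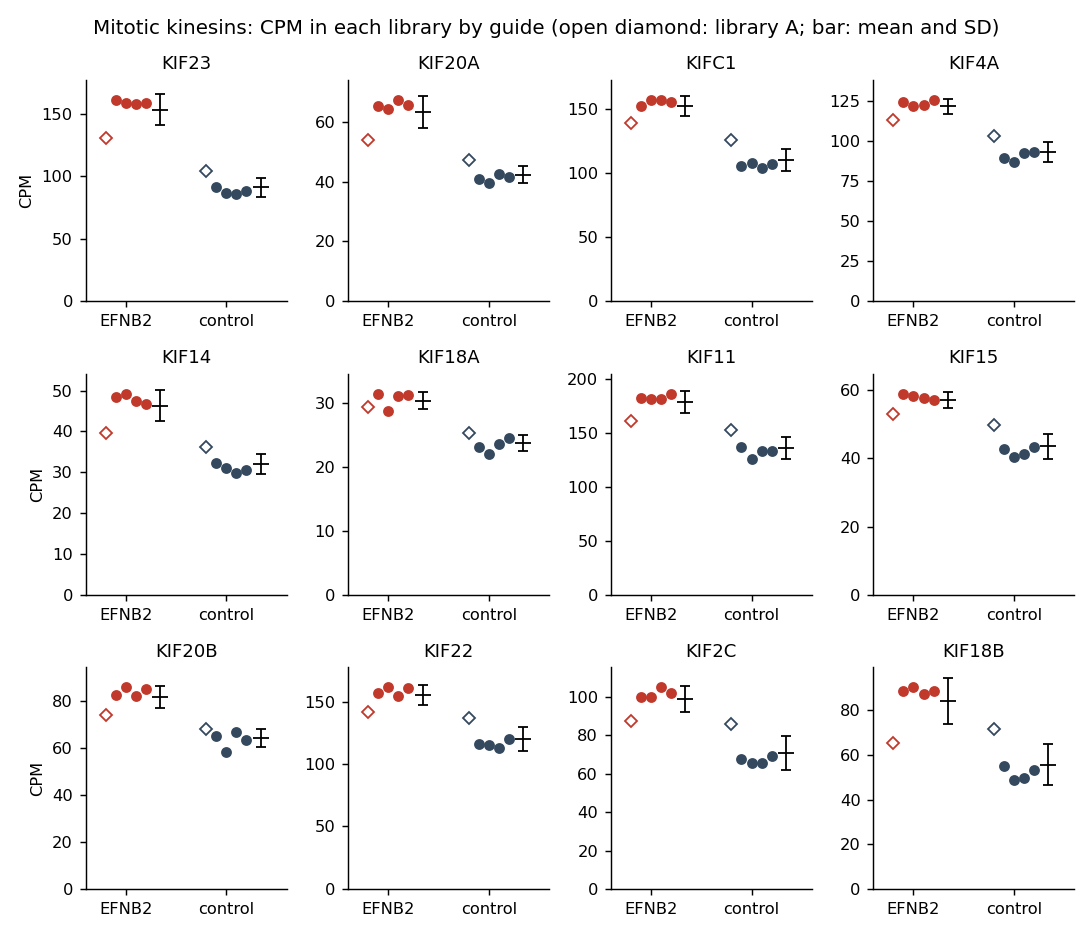
CPM of the 12 tested mitotic kinesins in each library, EFNB2 guide left of control guide, with the mean and SD (n = 5); open diamonds are the A libraries. Groups are apart in 11 panels and overlap for KIF18B, where the A libraries stand at 65.5 CPM (EFNB2 guide) and 71.5 CPM (control guide).

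The A libraries moved with the mitotic kinesins. Library A was the lowest of its group in 11 of 12 mitotic kinesins with the EFNB2 guide and the highest in 12 of 12 with the control guide, so it narrowed the difference. Over all tested genes, the EFNB2-guide A library was lowest in 29.9% and the control-guide A library highest in 28.9%. Between the A libraries alone, the EFNB2 guide was above the control guide in 11 of 12 mitotic kinesins, KIF18B being the exception. With both A libraries left out, the 12 mitotic kinesins again passed as higher, with a median log2 fold change of 0.51, while 28% of 17860 tested genes were called higher and 27.2% lower. Among libraries B to E the groups did not overlap in any of the 12.

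KIF23 lies on chromosome 15, where 398 of 623 tested genes were higher with the EFNB2 guide and 27 lower, with a median log2 fold change of 0.31. Of the 6 tested genes within 1 Mb of KIF23, 3 were higher and 0 lower. The other 11 tested mitotic kinesins lie on other chromosomes, and all 11 were higher, with a median of 0.39. Neighbours within 1 Mb leaned upward for some of them too, while over all tested genes 22.8% were higher and 22.6% lower. Near KIF20B 6 of 14 tested genes were higher and 0 lower, with a median log2 fold change of 0.29 beside 0.35 for KIF20B itself. Near KIF20A 8 of 20 were higher and 0 lower (median 0.12, KIF20A itself 0.58). Near KIFC1 19 of 52 were higher and 9 lower (median 0.10, KIFC1 itself 0.47). Neighbours leaned downward near KIF14 (1 of 13 higher and 6 lower, median -0.12) and KIF4A (2 of 16 higher and 6 lower, median -0.09). The part of chromosome or neighbourhood in these rises was not tested.

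Per kilobase of exon (union of GENCODE 29 exons), the mitotic kinesins spanned a wide range of levels. KIFC1 led with 45.5 ± 2.30 CPM per kb under the EFNB2 guide, against 32.9 ± 2.61 CPM per kb in control-guide libraries (SD, n = 5 each). KIF11 followed with 36.8 ± 2.07 CPM per kb under the EFNB2 guide, against 28.1 ± 2.1003 CPM per kb in control-guide libraries. KIF22, at 35.9 ± 1.86 CPM per kb under the EFNB2 guide, against 27.9 ± 2.274 CPM per kb in control-guide libraries, did not differ from KIF11 beyond their spread. KIF2C and KIF4A formed the next pair at 27.1 and 26.8 CPM per kb with the EFNB2 guide, and KIF23 stood at 23.3 CPM per kb under the same guide. At the low end were KIF18A with 6.50 CPM per kb and KIF14 with 6.36 CPM per kb, also under the EFNB2 guide and again within their spread. The highest transport kinesin on this scale was KIF5B, with 13.3 ± 0.130 CPM per kb under the EFNB2 guide, against 11.8 ± 0.239 CPM per kb in control-guide libraries (SD, n = 5 each).

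Among the 14 mitotic kinesins, 2 had too few reads for a test. KIF4B is described with KIF4A, and KIF2B, a relative of KIF2C known from testis, had 0 counts in every library, which allows up to 0.0537 to 0.0627 CPM depending on the library (3 counts, counting error only).

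The transport kinesins moved in both directions, and close relatives differed. With both A libraries left out, 4 of 13 were higher and 8 lower, with a median log2 fold change of -0.15. Of all genes tested there, 28% were higher and 27.2% lower. In the kinesin-1 class, the motors that carry mitochondria and vesicles with kinesin light chains, the ubiquitous heavy chain KIF5B and the heavy chain KIF5C rose while KIF5A fell. KIF5B reached 78.2, 79.2, 77.6, 79.2 and 77.8 CPM in EFNB2-guide libraries A to E, and 66.8, 70.0, 69.8, 69.5 and 70.2 CPM in control-guide libraries A to E. These groups were narrow and did not overlap (log2 fold change 0.18, SE 0.02, adjusted p = 1.8e-05). The level of KIF5C was 59.4, 57.1, 60.8, 60.8 and 56.0 CPM in libraries A to E of the EFNB2 guide, against 43.5, 51.0, 48.0, 48.5 and 48.9 CPM in those of the control guide. KIF5C, best known from neurons, also showed no overlap (log2 fold change 0.29, SE 0.04, adjusted p = 2.13e-05). KIF5A was at 22.9, 22.6, 23.8, 23.3 and 22.2 CPM in EFNB2-guide libraries A to E, against 33.6, 30.3, 24.8, 27.0 and 28.5 CPM in control-guide libraries A to E. For KIF5A, the third heavy chain and likewise a neuronal one, every EFNB2-guide library lay below every control, the control-guide A library being the highest (log2 fold change -0.33, SE 0.06, adjusted p = 0.000572).

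In the kinesin-2 class, which builds cilia and carries organelles as a trimer of KIF3A, KIF3B or KIF3C and the adaptor KIFAP3, KIF3A, KIF3B and KIFAP3 fell and KIF3C rose. KIF3A reached 40.6, 42.1, 40.5, 42.3 and 42.3 CPM in EFNB2-guide libraries A to E, and 46.5, 53.8, 49.0, 51.1 and 48.2 CPM in control-guide libraries A to E. The EFNB2 guide was below the control guide without overlap (log2 fold change -0.26, SE 0.04, adjusted p = 4.04e-05). The level of KIF3B was 63.8, 58.9, 58.3, 59.3 and 62.6 CPM in libraries A to E of the EFNB2 guide, against 63.7, 68.4, 69.6, 68.7 and 66.9 CPM in those of the control guide. Here the groups met, with 63.8 CPM in the EFNB2-guide A library and 63.7 CPM in the control-guide A library (log2 fold change -0.15, SE 0.03, adjusted p = 0.0014). KIF3C was at 22.6, 23.3, 23.0, 24.3 and 22.4 CPM in EFNB2-guide libraries A to E, against 21.2, 20.4, 19.4, 18.6 and 20.05 CPM in control-guide libraries A to E. KIF3C, which pairs with KIF3A in place of KIF3B, was higher without overlap (log2 fold change 0.22, SE 0.04, adjusted p = 0.000478). KIFAP3 averaged 52.3 ± 1.09 CPM under the EFNB2 guide, against 59.7 ± 2.31 CPM in control-guide libraries (SD, 5 libraries a guide), a log2 fold change of -0.19.

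In the kinesin-3 class of vesicle motors, KIF1C and KIF13B fell and KIF1A, KIF1B and KIF16B did not pass. KIF1C reached 35.3, 35.9, 36.0, 35.3 and 35.0 CPM in EFNB2-guide libraries A to E, and 41.5, 43.2, 44.2, 38.4 and 44.4 CPM in control-guide libraries A to E. KIF1C, a motor of integrin vesicles, showed no overlap (log2 fold change -0.25, SE 0.04, adjusted p = 5.95e-05). The level of KIF13B was 60.3, 59.0, 59.0, 58.4 and 58.6 CPM in libraries A to E of the EFNB2 guide, against 58.6, 66.1, 68.0, 71.3 and 68.7 CPM in those of the control guide. For KIF13B the groups overlapped through the control-guide A library, which was the lowest of its group (log2 fold change -0.17, SE 0.04, adjusted p = 0.00339). KIF1B, which carries mitochondria and synaptic vesicle precursors, took the most reads of the transport kinesins. KIF1B was at 86.4, 87.0, 82.5, 81.2 and 84.9 CPM in EFNB2-guide libraries A to E, against 77.7, 86.9, 87.1, 92.7 and 88.2 CPM in control-guide libraries A to E. These groups overlapped (log2 fold change -0.04, SE 0.04, adjusted p = 0.481), and without the control-guide A library, again the lowest of its group, the adjusted p was 0.0369 with a log2 fold change of -0.07. KIF16B, an early endosome motor, averaged 10.6 ± 0.478 CPM under the EFNB2 guide, against 11.4 ± 0.407 CPM in control-guide libraries (SD, n = 5 each; adjusted p = 0.0659), and KIF1A, a neuronal motor, 1.16 ± 0.206 CPM under the EFNB2 guide, against 0.914 ± 0.0972 CPM in control-guide libraries (SD, n = 5 each; adjusted p = 0.0672). KIF16B passed as lower without EFNB2-guide library A (adjusted p = 0.0327) or control-guide library A (0.0498), and KIF1A as higher without EFNB2-guide library E (0.0389).

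Of the minus-end directed transport motors, KIFC3 had few reads and fell. KIFC3 (chromosome 16, 57758217 to 57863053, minus strand) is known from cell junctions and the Golgi. KIFC3 reached 0.367, 0.309, 0.209, 0.328 and 0.237 CPM in EFNB2-guide libraries A to E, and 0.454, 0.543, 0.537, 0.404 and 0.620 CPM in control-guide libraries A to E. The groups did not overlap, and the fold was 0.572 (log2 fold change -0.81, SE 0.21, adjusted p = 0.00546). The levels rest on 212 counts over the 10 libraries. KIFC2 averaged 33.6 ± 1.71 CPM under the EFNB2 guide, against 32.1 ± 4.79 CPM in control-guide libraries (SD, n = 5 each; adjusted p = 0.504), and its control-guide libraries ranged from 26.8 CPM in D to 39.9 CPM in A. Without the control-guide A library the log2 fold change of KIFC2 was 0.16 with an adjusted p of 0.0113. The 2 transport kinesins not tested were KIF13A, with 5 counts summed over each group, and KIF17, with 37 counts over the EFNB2-guide libraries and 27 over the controls.

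**Figure D5:**
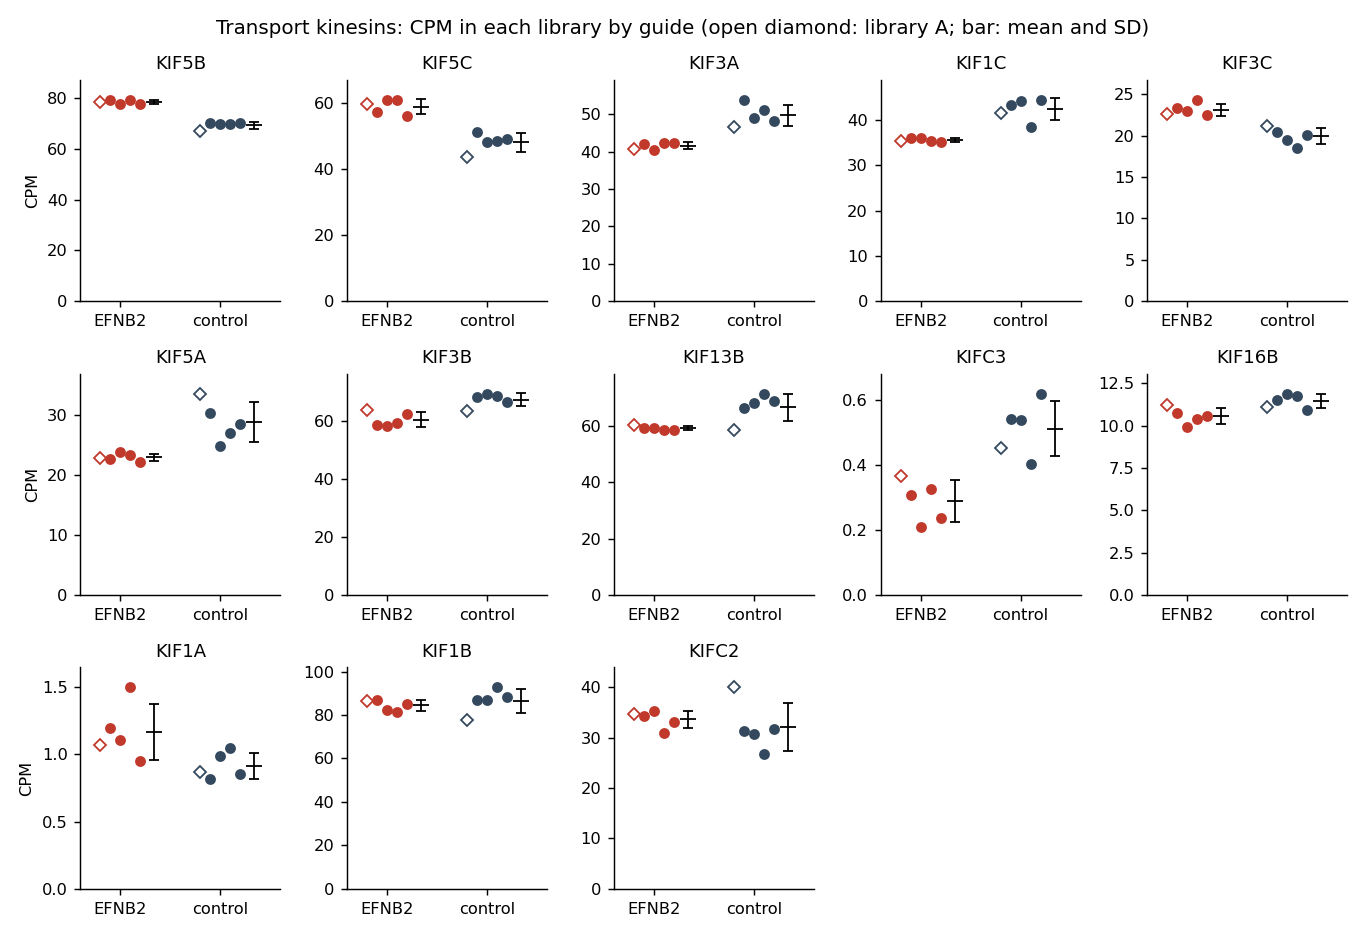
CPM of the 13 tested transport kinesins in each library, EFNB2 guide left of control guide, with the mean and SD (n = 5); open diamonds are the A libraries. KIF5B, KIF5C and KIF3C are higher and KIF3A, KIF1C, KIF5A and KIFC3 lower without overlap.

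Among the other kinesins, KIF7 and KIF24 rose and KIF21A, KIF21B, KIF2A and KIF27 fell. KIF7 (chromosome 15, 89608789 to 89655451, minus strand) organises the tip of the primary cilium in Hedgehog signalling. The level of KIF7 was 39.7, 40.3, 38.8, 36.5 and 38.1 CPM in libraries A to E of the EFNB2 guide, against 24.9, 25.6, 25.2, 26.8 and 26.3 CPM in those of the control guide. The groups were far apart, and library A did not stand out (log2 fold change 0.59, SE 0.04, adjusted p = 3.22e-09). Over 22268 bases KIF7 shares its position with TICRR, a replication gene on the other strand with 19798 counts over the 10 libraries beside the 16757 of KIF7, and without knowing the strand setting of the counting their reads cannot be told apart. KIF7 also lies on chromosome 15, and 15 of the 28 tested genes within 1 Mb of it were higher and 3 lower. The part of either in the rise of KIF7 was not tested.

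KIF21B, which slows microtubule growth, took the most reads of this group. KIF21B was at 159.7, 161, 166, 156 and 160.4 CPM in EFNB2-guide libraries A to E, against 180.1, 169, 174, 176 and 175 CPM in control-guide libraries A to E. The groups did not overlap (log2 fold change -0.12, SE 0.02, adjusted p = 0.000831). Its relative KIF21A averaged 40.6 ± 1.83 CPM under the EFNB2 guide, against 47.0 ± 2.07 CPM in control-guide libraries (SD, 5 libraries a guide), a log2 fold change of -0.21. KIF2A, a microtubule depolymerase of neurons and spindle poles in the same class as KIF2C, averaged 105 ± 1.99 CPM under the EFNB2 guide, against 112 ± 2.36 CPM in control-guide libraries (SD, 5 libraries a guide), a log2 fold change of -0.09 (adjusted p = 0.0094), in the opposite direction to KIF2C. It overlaps IPO11 on the same strand and DIMT1 on the other. KIF24, which restrains cilium formation, averaged 27.1 ± 2.15 CPM under the EFNB2 guide, against 23.7 ± 0.608 CPM in control-guide libraries (SD, 5 libraries a guide), a log2 fold change of 0.19. KIF27, a relative of KIF7, averaged 7.14 ± 0.267 CPM under the EFNB2 guide, against 8.29 ± 0.820 CPM in control-guide libraries (SD, n = 5 each), at -0.21 on the log2 scale with an adjusted p of 0.0179, and the call was lost without EFNB2-guide library B (adjusted p = 0.0558), control-guide library B (0.0596) or control-guide library D (0.0509). KIF9, a motor of motile cilia, averaged 3.58 ± 0.323 CPM under the EFNB2 guide, against 3.79 ± 0.226 CPM in control-guide libraries (SD, n = 5 each) and did not pass (adjusted p = 0.443). The 6 not tested were KIF6, KIF12, KIF19, KIF25, KIF26A and KIF26B, with 1 to 15 counts summed over the EFNB2-guide libraries and 0 to 8 over the controls.

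Genes of the proteins that mitotic kinesins work with rose as well. All 22 of 22 listed partners and regulators were higher and 0 lower, with a median log2 fold change of 0.43. Without chromosome 15 genes, 20 of 20 were higher. Over all tested genes 22.8% were higher and 22.6% lower, with a median of 0.01. The citron kinase gene CIT, whose product works with KIF14 and KIF23, averaged 83.7 ± 6.42 CPM under the EFNB2 guide, against 42.3 ± 3.10 CPM in control-guide libraries (SD, 5 libraries a guide), with a log2 fold change of 0.98 and an adjusted p of 1.52e-09, a larger difference than that of any tested kinesin. PSRC1, a spindle protein, and ANLN, the anillin of the division ring, had log2 fold changes of 0.57 and 0.50. CENPE, the kinetochore kinesin, averaged 165 ± 6.60 CPM under the EFNB2 guide, against 144 ± 8.06 CPM in control-guide libraries (SD, 5 libraries a guide) at a log2 fold change of 0.20. Library A was the lowest with the EFNB2 guide in 22 of 22 partners and the highest with the control guide in 20 of 22, the pattern seen in the mitotic kinesins.

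Genes for activators and repressors of mitotic transcription, to which FOXM1, B-MYB and the DREAM and MuvB subunits belong, gave 12 higher and 2 lower of 17 with a median log2 fold change of 0.19, beside 22.8% higher and 22.6% lower over all tested genes. E2F7, an atypical E2F repressor, had a log2 fold change of 0.59, FOXM1, an activator of G2 and M genes including kinesins, 0.43 and E2F2 0.43. LIN54, the subunit that binds the CHR element, averaged 28.5 ± 1.46 CPM under the EFNB2 guide, against 25.0 ± 1.16 CPM in control-guide libraries (SD, 5 libraries a guide) at a log2 fold change of 0.19. The genes that fell were RBL2, which encodes the p130 subunit of the repressive DREAM complex, by 0.26 on the log2 scale, and CDKN1A, the p21 inhibitor gene, by 0.20.

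On the side of the tracks and the cargo, calls fell in both directions, though mostly as rises among the tubulins. Over all tested genes 22.8% were higher and 22.6% lower. Of 15 tested tubulins, 8 were higher and 1 lower with a median log2 fold change of 0.24. Among tubulins whose mean log2 CPM reached 1, TUBB3 (0.59), TUBD1 (0.38) and TUBB4B (0.35) rose most, and TUBA4A fell by 0.27 on the log2 scale. With fewer reads, TUBB4A (0.90) and TUBB2A (0.56) were also higher. Of 21 cargo adaptors and light chains, 5 were higher and 6 lower with a median of 0.03, shares near those of all tested genes. The rises included the JIP scaffold gene MAPK8IP2 (0.37), the light chain gene KLC1 (0.18) and RHOT2 (0.18), which encodes the Miro protein that ties mitochondria to kinesin-1. The falls included BORCS5 (-0.20), a subunit of the complex that links lysosomes to kinesins, and KIFAP3 (-0.19). Without both A libraries 8 of the 21 were higher and 7 lower, in a fit that called 28% of all tested genes higher and 27.2% lower. Dynein and dynactin, the motor complex that moves the other way, gave 5 higher and 6 lower of 28 with a median of -0.01, no more than the shares of all tested genes. SPDL1, the spindly adaptor of mitotic kinetochores, was the largest rise there (0.39), followed by DYNLT1 (0.26) and DYNC1LI2 (0.20), and the largest falls were BICD1 (-0.29), DYNC1I1 (-0.26) and DYNLT3 (-0.18). With both A libraries left out, 12 of the 28 were lower, beside 27.2% of all genes tested there.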

How the data were processed

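RNA of 10 U266 libraries was compared, 5 with the EFNB2 guide and 5 with the control guide, grouped by the genotype label. Poly(A) RNA was turned into strand-specific libraries and read as pairs, per the labels' protocols. Per the submitters' processing notes, the build was GRCh38 and the tools were Partek, STAR 2.27a and DESeq2, with no role given. How counting used strand and which annotation it followed is not given in the sources used here. All main results start from the raw, unnormalized gene counts that the authors deposited. A second deposited table holds a normalized signal, equal to the raw count plus a small constant times 1 factor per library, which served as an alternative only. The 3 rows named by a number name no gene and were left out; they held at most 0.00007% of the counts of a library.

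Counts were tested with edgeR 4.0.16 (R 4.3.3; filterByExpr, TMM, glmQLFit and glmQLFTest, guide as the only term), with Benjamini-Hochberg adjustment over 17834 genes and a threshold of 0.05. SE is the absolute log2 fold change over the square root of F. CPM, as edgeR gives them, use the TMM-scaled library size. Depth was 47268072 to 56513548 counts per library, at which 3 counts equal 0.0537 to 0.0627 CPM. Gene positions and exon lengths came from GENCODE 29, and promoter windows from RefSeq (GRCh38.p14). The kinesins, roles, lists and motifs were chosen with earlier results of these data known. Values in every library are given for the 8 mitotic and 8 transport kinesins with the smallest p, those changed at least 1.5-fold past the threshold and those with the highest CPM of their role. From each list up to 3 rises and 3 falls are named (mean log2 CPM no lower than 1), of which 1 is not reported here; CENPE, LIN54, TUBB4A and TUBB2A were added after their values were seen. Alternatives were DESeq2 1.42.0, limma-voom and limma-trend (limma 3.58.1), other scalings, filters and roles, the replicate letter as a block, and leaving out libraries or genes. The fits were tested on simulated data.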

Additional observations from a re-analysis of the deposited data

Results flagged for a closer look

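The check covered 64 groups of 5 libraries (32 tested kinesins under each guide). In 12 of them, 1 library lay far from the other 4 of its guide. Chance alone flags about 1 group in 20, but the kinesins share the same libraries, so the 64 groups are not independent. In all 12 the distant library was an A library. The control-guide A library was distant 5 times, being the highest for KIF18B (71.5 CPM, the others 48.9 to 55.0 CPM), KIF22 (137 CPM, the others 113 to 119.8 CPM), KIF2C (86.0 CPM, the others 65.4 to 69.0 CPM) and KIFC1 (125 CPM, the others 104 to 108 CPM) and the lowest for KIF5B (66.8 CPM, the others 69.5 to 70.2 CPM). The EFNB2-guide A library was the lowest in the other 7. It stood at 161 CPM for KIF11 (the others 182 to 186 CPM), 39.7 CPM for KIF14 (46.7 to 49.2 CPM), 65.5 CPM for KIF18B (87.6 to 90.3 CPM) and 54.0 CPM for KIF20A (64.1 to 67.3 CPM). For KIF23 it was at 131 CPM (the others 157 to 161 CPM), for KIF2C at 87.4 CPM (99.9 to 105 CPM) and for KIFC1 at 139 CPM (152 to 157 CPM). What sets the A libraries apart was not tested.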

How the results depend on the processing

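Over 21 alternative settings (20 for KIF23, KIF7 and KIFC3) 26 of 32 tested kinesins, all 12 mitotic ones among them, kept their direction and their side of the threshold. Of 669 gene and setting pairs 4 lost a call, 10 gained one and 0 reversed; the gains fell on KIF1A, KIF1B, KIF16B and KIFC2, the losses on KIF27 and KIF2A. The letters A to E did not pair the libraries (same-letter correlations of deviations -0.24 to 0.00), and with the letter as a replicate block 12 mitotic kinesins were again higher, while KIF2A no longer passed (adjusted p = 0.0516). The median log2 fold change of mitotic kinesins was 0.51 without both A libraries, and that of transport kinesins -0.0399 without a filter, where KIF13A and KIF17 enter. With KIF2A and KIF24 counted as mitotic, KIF21A and KIF21B as transport and KIFC3 as other, 1 mitotic kinesin, KIF2A, was lower, and 1 other kinesin was higher and 2 lower. Without chromosome 15 genes, KIF7 among them, 1 other kinesin was higher. Without both A libraries 8 cargo adaptors were higher and 12 dynein and dynactin genes lower; leaving out 1 library at a time gave 5 to 8 such adaptors. On the deposited values, as log2(value + 1), KIFC3 fell by 0.24, a scale that understates changes of genes with few reads. At these depths 10 kinesins could not be tested.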

Other observations

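PRC1, which bundles midzone microtubules and is moved by KIF4A, and NUSAP1, a spindle protein, had few reads for genes of their kind and are named here after their values were seen. PRC1 averaged 1.92 ± 0.302 CPM under the EFNB2 guide, against 1.04 ± 0.180 CPM in control-guide libraries, and NUSAP1 1.32 ± 0.249 CPM under the EFNB2 guide, against 0.626 ± 0.143 CPM in control-guide libraries (SD, n = 5 each). Another gene model covers 29440 of the 29592 bases of PRC1 and 48050 of the 48357 bases of NUSAP1 on the same strand, and whether reads of both genes were lost to this overlap in the counting was not tested. PRC1 also shares 22280 bases with PRC1-AS1 on the other strand, which held 1368 counts over the 10 libraries beside the 764 of PRC1. Without knowing the strand setting of the counting, reads of PRC1 and PRC1-AS1 cannot be told apart. Both genes lie on chromosome 15, where 398 of 623 tested genes were higher with the EFNB2 guide and 27 lower. The part of the chromosome in their rise was not tested. FEZ1, a kinesin-1 adaptor of axonal transport, had the largest fold change among the cargo adaptors, with 3.55 ± 0.252 CPM under the EFNB2 guide, against 0.711 ± 0.123 CPM in control-guide libraries (SD, 5 libraries a guide), at a log2 fold change of 2.31 and an adjusted p of 5.69e-10, and was likewise chosen after its values were seen.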
